A study of Homo sapiens with 30 samples.

Results

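Fatty acid and cholesterol synthesis was followed through 35 genes chosen by name, whose rows were taken from a deposited table of 38122 Ensembl genes. The fatty acid arm held 13 genes: 12 enzymes and SREBF1, the gene of the regulator SREBP-1. The sterol arm held 19 genes: 17 enzymes, the cholesterol carrier STARD4 and SREBF2, the gene of SREBP-2. The other 3 genes, SCAP, INSIG1 and INSIG2, control the processing of both regulators. RNA sequencing had been done on established human cancer lines: SiHa from the cervix, HCT116 from the colon and FaDu from the hypopharynx. Cells of each line were grown at pH 6.5, after at least 1 month of maintenance at that pH, or at pH 7.4. Both media were DMEM with 10% fetal bovine serum, 10 mM glucose and 2 mM glutamine, buffered by HEPES and PIPES at 25 mM each. Sterols and fatty acids could thus be taken up from serum in every culture. The labels assign 5 libraries to each of the 6 groups and give no batch, date or culture of origin, so p-values measure the spread between libraries, which may be technical.

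Cells make fatty acids and cholesterol from the same cytosolic acetyl-CoA. SREBP-1 and SREBP-2 are made as precursors bound to the membrane of the endoplasmic reticulum. When membrane sterols are scarce, SCAP carries them to the Golgi, where they are cut and released to enter the nucleus. When sterols are plentiful, INSIG proteins hold SCAP back. SREBP-2 acts mainly on genes of the mevalonate and sterol pathway and on its own gene, and SREBP-1 mainly on genes that make and desaturate fatty acids. Many tumours make fatty acids themselves even where serum supplies them.

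Depth ran from 21.02 to 55.7 M reads per library, and 9 of the 30 libraries were set apart from the comparisons: 7 held reads of a line other than the one on their label, and 2 stood apart from their group. Genes restricted to 1 line (24 for FaDu, 33 for HCT116 and 28 for SiHa) were used to check this. In FaDu pH 7.4 replicates 2 to 5, the median HCT116 gene stood at 30.6% to 80.4% of its HCT116 level. In HCT116 pH 6.5 replicates 5, 6 and 7, the median SiHa gene stood at 37.5%, 101% and 104% of its SiHa level. SiHa pH 7.4 replicates 6 and 7 held no such reads, but had 2817 and 2863 normalised counts of VIM, the vimentin gene, where the 3 kept SiHa pH 7.4 libraries had between 2.04 and 165. In the 21 kept libraries, the median gene of another line stood at 0.0708% at most. These genes were chosen to be at most 1% of their own line's lowest level in the other lines' reference groups. Those groups were FaDu pH 6.5, HCT116 pH 7.4 and SiHa pH 6.5, so low values there were fixed by that choice. In the kept libraries of the other groups, which alone were checked, the highest value was 0.0466%, in HCT116 pH 6.5 replicate 1. The comparisons therefore rest on 5 SiHa libraries at pH 6.5 and 3 at pH 7.4, on 2 HCT116 libraries at pH 6.5 and 5 at pH 7.4, and on 5 FaDu libraries at pH 6.5 and 1 at pH 7.4. Markers of colon epithelium summed to between 1515 and 2125 normalised counts in the kept HCT116 libraries, and to at most 56.3 in the kept libraries of SiHa and FaDu. Of these 10 markers, 5 were at or below the counting floor in every kept HCT116 library at pH 6.5, and 1 at pH 7.4. Of 6 adipocyte markers, 4 were at or below the counting floor in every kept SiHa library, and 4 in every kept FaDu library. In HCT116 5 were at the floor at pH 6.5 and 3 at pH 7.4, and the 6 summed to 939 to 1412 normalised counts, against 105 to 251 in the kept libraries of the other lines.

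Values are normalised counts, that is, reads divided by 1 size factor per library. A log2 ratio compares log2(normalised count + 1) at pH 6.5 with that at pH 7.4, is given with its standard error (SE), and was called at a limma adjusted p under 0.05 over all genes tested. In SiHa, 34 of the 35 genes passed the filter on low values (the group with the higher mean had to reach 10), and in HCT116 and FaDu all 35 passed. These are bulk values, so fewer cells of a kind and less RNA per cell cannot be told apart.

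In SiHa cells at pH 6.5, sterol genes rose at steps from HMG-CoA to the late sterols, together with SREBF2 and INSIG1, while in the fatty acid arm SCD, ELOVL6 and FADS3 fell. ACSS2 was called higher at an adjusted p just under the threshold. Of 18 sterol genes tested, 9 rose and 0 fell (also 0 at an unadjusted limma p under 0.05), and their median log2 ratio was 0.62, against -0.01 over all 18555 genes tested. Of 13 fatty acid genes, 1 rose and 3 fell, with a median of -0.13. Over all members, 11 rose and 3 fell. Among all genes tested, 15.0% rose and 16.2% fell, so for rises 9 of 18 stood above this background and 1 of 13 did not. For falls, 3 of 13 fatty acid genes lay near it and 3 of 34 members below it. The groups did not overlap for 12 of 34 members higher and 3 lower, against 17.1% and 18.4% of all genes. Between the same SiHa groups, 10 squamous genes summed to 8312 to 19543 normalised counts at pH 6.5, against 20459 to 26432 at pH 7.4. The sums of 8 fibroblast genes, 1132 to 3414 at pH 6.5 and 2958 to 4284 at pH 7.4, overlapped. Of these lists, 2 squamous genes and 1 fibroblast gene at pH 6.5, against 1 and 0 at pH 7.4, were at the counting floor in every library. The 6 adipocyte markers summed to 105 to 148 normalised counts at pH 6.5, against 182 to 231 at pH 7.4, with 4 at the floor in each group. The part of these marker differences in the results was not tested.

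SREBF2 (ENSG00000198911) is the regulator of the sterol arm. It stood at 11912, 11996, 11890, 14271 and 16438 normalised counts in SiHa pH 6.5 replicates 1, 4, 5, 6 and 7, against 8635, 8642 and 8598 in pH 7.4 replicates 1, 4 and 5. All 5 libraries at pH 6.5 were above all 3 at pH 7.4, and those 3 were nearly equal. The log2 ratio was 0.61 ± 0.12 (limma adjusted p = 0.00302). SREBF1, by contrast, had 23493, 13360, 19244, 18785 and 11470 normalised counts at pH 6.5, against 19916, 19324 and 16771 at pH 7.4, and its groups overlapped (-0.16 ± 0.20, limma adjusted p = 0.582).

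The mevalonate pathway turns HMG-CoA into farnesyl pyrophosphate. All 6 of its members had a log2 ratio above 0 in SiHa, and 4 were called. HMGCS1, which makes HMG-CoA, had 11705, 23065, 10648, 13017 and 21627 normalised counts at pH 6.5, against 8978, 9105 and 7264 at pH 7.4 (0.85 ± 0.24, limma adjusted p = 0.0223). Replicates 4 and 7 at pH 6.5 were the highest, and the other 3 were still above every library at pH 7.4. MVD, which decarboxylates mevalonate pyrophosphate, had 33756, 50340, 23990, 23502 and 38936 normalised counts at pH 6.5, against 21230, 16200 and 16583 at pH 7.4 (0.87 ± 0.23, limma adjusted p = 0.0152). FDPS, which makes farnesyl pyrophosphate, had 4811, 6590, 4805, 4343 and 7201 normalised counts at pH 6.5, against 3184, 2968 and 3130 at pH 7.4 (0.81 ± 0.16, limma adjusted p = 0.00340). MVK, the mevalonate kinase, rose by 0.67 ± 0.16 (limma adjusted p = 0.00878). IDI1, the isomerase between MVD and FDPS, had a log2 ratio of 0.41 ± 0.16 without being called (limma adjusted p = 0.0747), although its groups did not overlap. PMVK, which adds the last phosphate before MVD, had a log2 ratio of 0.24 ± 0.14.

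Downstream of farnesyl pyrophosphate, squalene synthase FDFT1 had 12189, 20579, 10744, 12250 and 18456 normalised counts at pH 6.5, against 8954, 8790 and 8711 at pH 7.4 (0.70 ± 0.19, limma adjusted p = 0.0191). SQLE, the squalene epoxidase, rose by 0.64 ± 0.18 (limma adjusted p = 0.0232), and LSS, which closes the ring to lanosterol, had 0.38 ± 0.14 without being called (limma adjusted p = 0.0634). Of the 8 enzymes that turn lanosterol into cholesterol, the C4 methyl oxidase MSMO1 rose by 0.66 ± 0.19 (limma adjusted p = 0.0218) and the sterol isomerase EBP by 0.67 ± 0.16 (limma adjusted p = 0.0106). CYP51A1, the lanosterol demethylase, had a similar log2 ratio of 0.63 but a wide spread, 195 to 522 normalised counts at pH 6.5 (SE 0.28, limma adjusted p = 0.109). HSD17B7 (0.31 ± 0.15) and NSDHL (0.22 ± 0.15), which act with MSMO1 on the C4 methyl groups, and SC5D (0.24 ± 0.13), which makes a double bond in the ring, were not called. DHCR7, which reduces a double bond in the ring, had a log2 ratio of 0.13 ± 0.21 (limma adjusted p = 0.671), and TM7SF2, a C14 sterol reductase, was the 1 sterol gene below 0 (-0.25 ± 0.16, limma adjusted p = 0.263).

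Of the genes that act on SREBP processing, INSIG1 had 11797, 24011, 10621, 10496 and 18282 normalised counts at pH 6.5, against 8485, 8919 and 7444 at pH 7.4. INSIG1 is itself a target of SREBP, and every library at pH 6.5 was above those at pH 7.4 (0.78 ± 0.25, limma adjusted p = 0.0341). INSIG2 had a log2 ratio of -0.33 ± 0.12 (limma adjusted p = 0.0570) and SCAP of -0.02 ± 0.08 (limma adjusted p = 0.880).

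SiHa pH 6.5 replicates 4 and 7 were the 2 highest of the 5 for 15 of 18 sterol genes and for 6 of 13 fatty acid genes, an order seen in 15.2% of all genes tested. This order was chosen for description after the values were seen. With both libraries left out, 11 members rose and 5 fell, where 2295 and 2684 of 18555 genes tested did. ACSS2 was no longer among the members that rose. Without pH 7.4 replicate 1, 4 or 5 in turn, 5, 5 and 4 members rose. Over all genes, 1935, 2147 and 1736 rose in these fits, against 2775 with every kept library, so calls were lost beyond the members too. SREBF2, MVK, FDPS and EBP kept their call in all 8 omissions of 1 library.

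**Figure D1:**
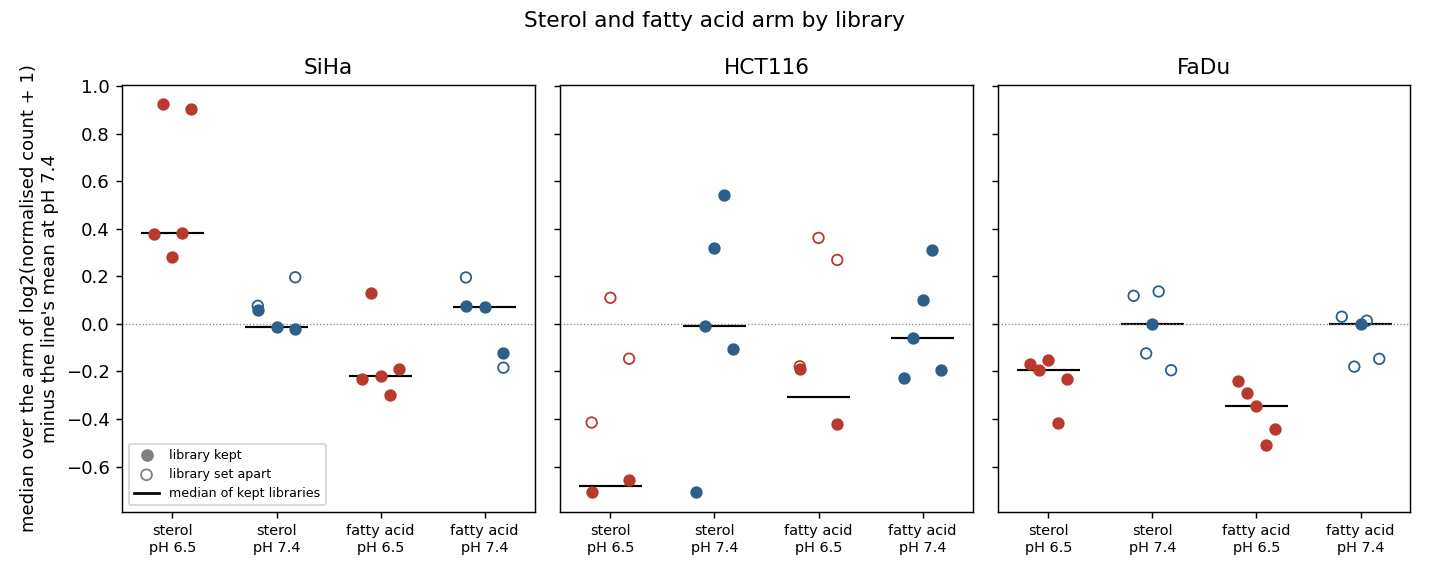
Median over the genes of each arm of log2(normalised count + 1) minus the line's mean at pH 7.4 (vertical axis), for each library of SiHa, HCT116 and FaDu at pH 6.5 (red) and pH 7.4 (blue). Filled points are kept libraries, open points libraries set apart, and bars medians of the kept libraries. The 5 SiHa libraries at pH 6.5 lie between 0.28 and 0.92 for the sterol arm, above the 3 kept at pH 7.4, and the HCT116 libraries at pH 7.4 spread from -0.71 to 0.54.

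The stretches before the start of SREBF2 and of 3 sterol enzymes that rose with it in SiHa are shown because CCAAT boxes, to which NF-Y binds, stand beside SREBP sites in many sterol promoters. Each is the 160 bases before the RefSeq start on GRCh38.p14, 5′ to 3′ on the plus strand, from chr22:41832945-41833104 for SREBF2, chr12:109573634-109573793 for MVK, chr1:155308706-155308865 for FDPS and chr4:165327509-165327668 for MSMO1. Capitals mark the CCAAT box on either strand (CCAAT or ATTGG) and, in SREBF2, the sterol regulatory element TCACNCCAC.
SREBF2: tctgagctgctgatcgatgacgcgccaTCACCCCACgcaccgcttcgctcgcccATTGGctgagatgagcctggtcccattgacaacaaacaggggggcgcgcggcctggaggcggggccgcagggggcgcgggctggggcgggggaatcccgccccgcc
MVK: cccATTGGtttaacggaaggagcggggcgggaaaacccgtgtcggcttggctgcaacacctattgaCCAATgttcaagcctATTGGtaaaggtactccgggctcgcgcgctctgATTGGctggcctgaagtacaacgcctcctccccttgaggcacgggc
FDPS: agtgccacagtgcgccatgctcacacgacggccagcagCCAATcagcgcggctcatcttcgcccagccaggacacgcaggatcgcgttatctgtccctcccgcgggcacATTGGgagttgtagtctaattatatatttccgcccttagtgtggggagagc
MSMO1: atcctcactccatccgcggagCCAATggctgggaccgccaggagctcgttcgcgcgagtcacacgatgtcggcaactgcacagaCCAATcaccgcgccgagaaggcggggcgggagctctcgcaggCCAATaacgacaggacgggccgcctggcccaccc

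MVK had 4 such boxes in its stretch, MSMO1 3, FDPS 2 and SREBF2 1. Over the 250 bases before any listed start, 32 of the 35 members were in the RefSeq table. A CCAAT box stood in 15 of 17 sterol genes and 7 of 12 fatty acid genes, against 37.0% of the 27305 genes in the table. The GC box GGGCGG, to which SP1 binds, stood in 16 of 17 sterol genes and 11 of 12 fatty acid genes, against 46.2% of all genes. The sterol regulatory element, searched only as TCACNCCAC, matched in 1 member, SREBF2, against 1.09% of all genes. Sites that differ from these letters or lie outside the window were not searched. The other members therefore cannot be said to lack one. The E-box CACGTG matched in 1 sterol gene, SC5D, 1 fatty acid gene, ELOVL5, and in INSIG1 and SCAP, against 7.73% of all genes. All motifs were searched on both strands, different motifs do not overlap in the stretches shown, and a match describes letters in a window, not binding.

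In the SiHa fatty acid arm, 3 genes of elongases and desaturases fell, and the acetyl-CoA supplier ACSS2 was called higher. ELOVL6, which lengthens palmitate to stearate, had 365, 392, 518, 621 and 345 normalised counts at pH 6.5, against 804, 1042 and 852 at pH 7.4. No library at pH 6.5 reached any at pH 7.4 (-1.03 ± 0.19, limma adjusted p = 0.00292). SCD, which puts the first double bond into stearate and palmitate, had 82056, 95052, 77680, 66814 and 74763 normalised counts at pH 6.5, against 128580, 146240 and 96539 at pH 7.4 (-0.63 ± 0.15, limma adjusted p = 0.0103). FADS3, a desaturase of the FADS family, fell by 0.61 on the log2 scale (SE 0.13, limma adjusted p = 0.00573). ELOVL6 and FADS3 kept their call in all 8 omissions, and SCD lost it without pH 7.4 replicate 4 (limma adjusted p = 0.0512).

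ACSS2 makes acetyl-CoA from acetate and so feeds both arms. It had 5581, 13118, 4689, 4640 and 10831 normalised counts at pH 6.5, against 4700, 3217 and 3200 at pH 7.4. Replicates 4 and 7 at pH 6.5 were the highest, the groups overlapped, and the call (0.95 ± 0.33, limma adjusted p = 0.0498) was lost in 5 of 8 omissions. It was also lost with all libraries as labelled, without replicates 4 and 7, with TMM, with a pseudocount of 0.5, with no filter or a filter of 50, with DESeq2 and in 1 fit over the 21 libraries. FASN, the fatty acid synthase, had 33849, 48180, 34122, 32292 and 38613 normalised counts at pH 6.5, against 46623, 36955 and 36518 at pH 7.4, a log2 ratio of -0.10 ± 0.14 (limma adjusted p = 0.602). ACLY, which makes acetyl-CoA from citrate, had a log2 ratio of -0.29 ± 0.19 (limma adjusted p = 0.255). FADS1 and FADS2, which make polyunsaturated chains, had log2 ratios of -0.13 ± 0.17 and -0.11 ± 0.17 and were not called. The elongases ELOVL1 (-0.19 ± 0.12), ELOVL5 (0.33 ± 0.12) and ELOVL7 (0.01 ± 0.13), which act on very long and polyunsaturated chains, and the carboxylase ACACB (0.04 ± 0.18) were not called either.

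**Figure D2:**
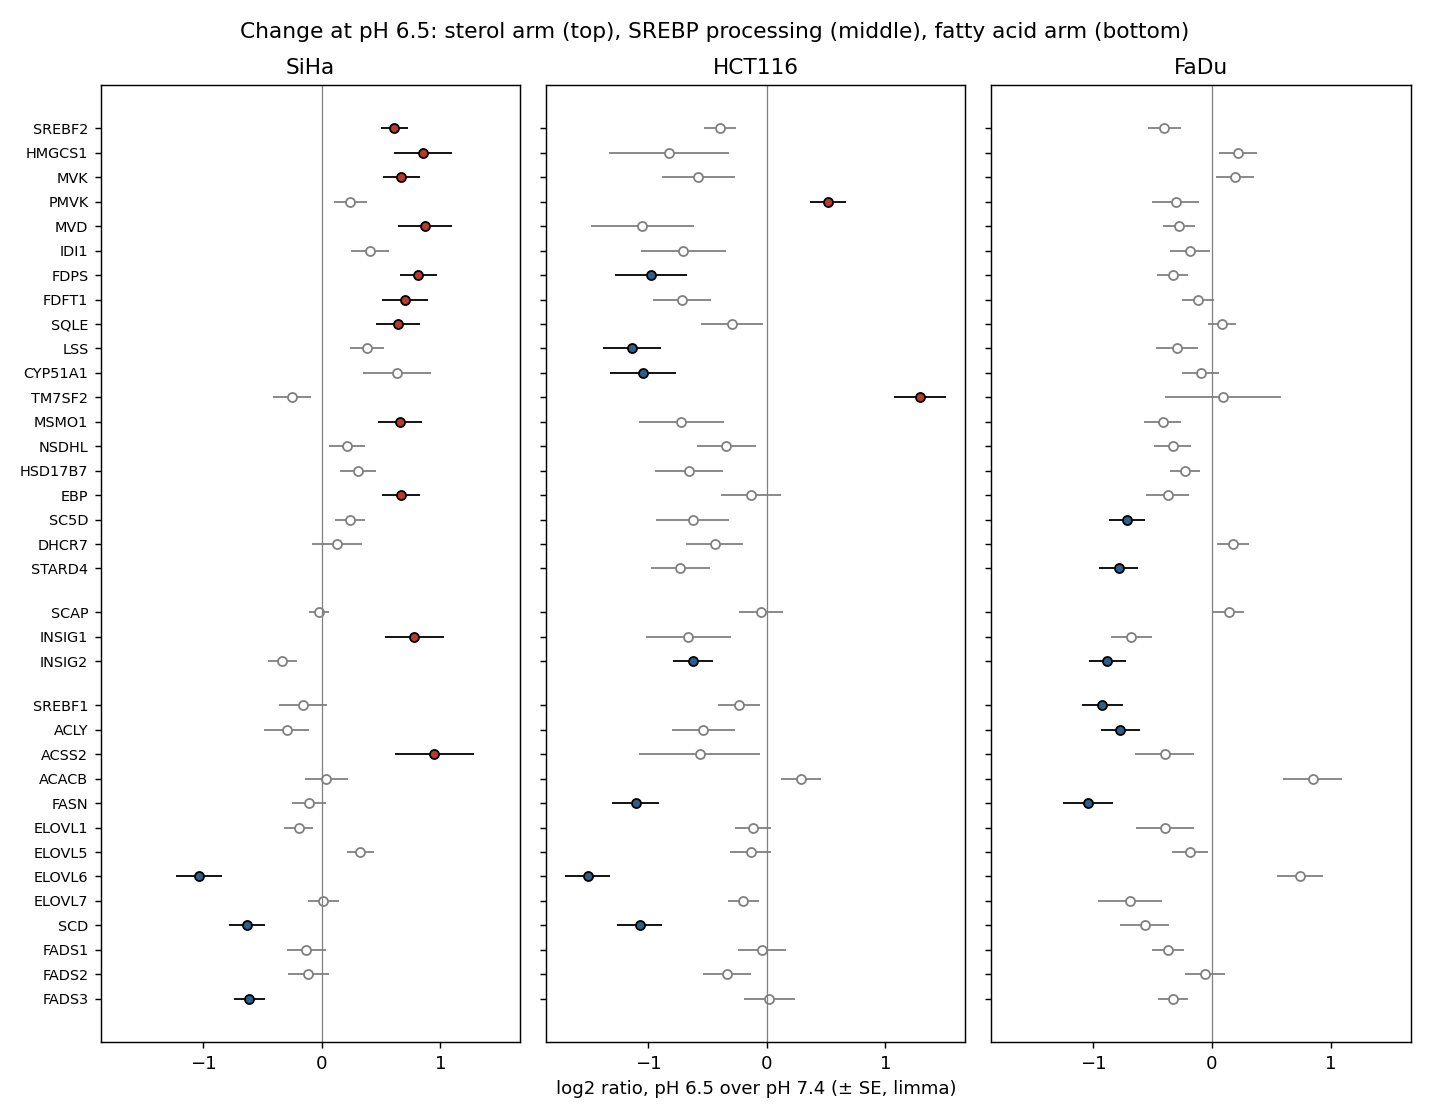
log2 ratio of pH 6.5 over pH 7.4 (horizontal axis) with its SE for each member in the kept libraries of SiHa, HCT116 and FaDu, sterol arm at the top, SREBP processing in the middle and fatty acid arm at the bottom. Filled red points rose and filled blue points fell at a limma adjusted p under 0.05, and open points were not called. In SiHa 9 sterol genes are filled red, in HCT116 TM7SF2 (1.29) and PMVK (0.51) are, and in FaDu all 6 filled points are blue.

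In HCT116 cells at pH 6.5, FASN, SCD and ELOVL6 fell, and with them INSIG2 and the sterol enzymes FDPS, LSS and CYP51A1, while TM7SF2 and PMVK rose. Of the 35 members, 2 rose and 7 fell, against 9.11% and 11.1% of the 18885 genes tested. The fatty acid arm had 0 called higher (also 0 at an unadjusted limma p under 0.05) and 3 lower with a median log2 ratio of -0.23, and the sterol arm 2 higher and 3 lower with a median of -0.65. Over all genes tested the median was -0.01, and the 2 and 3 of 19 sterol genes called lay near the shares of all genes. Below 0 stood 17 of 19 sterol genes and 11 of 13 fatty acid genes. The groups did not overlap for 3 of 35 members higher and 10 lower, against 17.4% and 18.7% of all genes. Between the same HCT116 groups, 6 immune markers summed to 27.5 to 29.7 normalised counts at pH 6.5, against 41.8 to 177 at pH 7.4, with 3 at the floor in each group, and the part of this in the results was not tested. The sums of the other 5 marker lists overlapped between these groups.

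FASN (ENSG00000169710) had 74678 and 49226 normalised counts in HCT116 pH 6.5 replicates 1 and 3, against 111240, 120230, 145950, 169210 and 113980 in pH 7.4 replicates 1, 3, 5, 6 and 7 (-1.10 ± 0.20, limma adjusted p = 0.00246). SCD had 38137 and 33093 normalised counts at pH 6.5, against 60844, 75644, 82360, 100760 and 60809 at pH 7.4 (-1.07 ± 0.19, limma adjusted p = 0.00215). ELOVL6 had 2184 and 2408 normalised counts at pH 6.5, against 4670, 6518, 6471, 8764 and 6821 at pH 7.4 (-1.51 ± 0.19, limma adjusted p = 0.000214). For these 3 genes the groups did not overlap and the call held in all 7 omissions of 1 library. ACACB, a carboxylase that makes malonyl-CoA, and FADS3 were the fatty acid genes above 0 (0.29 ± 0.17 and 0.02 ± 0.22), and neither was called. SREBF1 had a log2 ratio of -0.23 ± 0.18 (limma adjusted p = 0.383). The other 7, ACLY, ACSS2, ELOVL1, ELOVL5, ELOVL7, FADS1 and FADS2, lay between -0.57 and -0.04 and were not called.

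In the sterol arm, lanosterol synthase LSS had 4374 and 3894 normalised counts at pH 6.5, against 6248, 9780, 11915, 12364 and 6881 at pH 7.4 (-1.14 ± 0.24, limma adjusted p = 0.00672). CYP51A1, the next enzyme, had 340 and 419 normalised counts at pH 6.5, against 471, 664, 885, 1176 and 868 at pH 7.4 (-1.04 ± 0.28, limma adjusted p = 0.0210). FDPS had 2935 and 2813 normalised counts at pH 6.5, against 3025, 5313, 7384, 8745 and 5609 at pH 7.4 (-0.98 ± 0.30, limma adjusted p = 0.0398). For all 3 the lowest library at pH 7.4 was replicate 1, and for FDPS it lay only just above those at pH 6.5. INSIG2, which retains SCAP, fell by 0.62 on the log2 scale (SE 0.17, limma adjusted p = 0.0208). Calls were lost in 2 omissions for LSS, 3 for CYP51A1, 3 for INSIG2 and 6 for FDPS. Not called were SREBF2 (-0.39 ± 0.13, limma adjusted p = 0.0570), FDFT1 (-0.71 ± 0.24, limma adjusted p = 0.0562) and STARD4 (-0.73 ± 0.25, limma adjusted p = 0.0581), nor MSMO1 (-0.72 ± 0.36), IDI1 (-0.70 ± 0.36), HSD17B7 (-0.65 ± 0.28), SC5D (-0.62 ± 0.31), MVK (-0.58 ± 0.31), DHCR7 (-0.44 ± 0.24), NSDHL (-0.34 ± 0.25), SQLE (-0.29 ± 0.26) and EBP (-0.13 ± 0.25). INSIG1 (-0.66 ± 0.36) and SCAP (-0.05 ± 0.18) were not called either.

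TM7SF2 (ENSG00000149809) went the other way. It had 3705 and 2847 normalised counts at pH 6.5, against 1219, 1779, 1348, 1535 and 911 at pH 7.4. Both libraries at pH 6.5 were above all 5 at pH 7.4, and the log2 ratio of 1.29 ± 0.22 (limma adjusted p = 0.00169) was called in all 7 omissions. TM7SF2 shares its reaction with the lamin B receptor, LBR. PMVK, which adds the second phosphate to mevalonate, had 1307 and 967 normalised counts at pH 6.5, against 860, 782, 753, 778 and 764 at pH 7.4 (0.51 ± 0.15, limma adjusted p = 0.0304), a call lost in 5 of 7 omissions.

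The HCT116 libraries at pH 7.4 differed widely in the sterol arm. HMGCS1 had 7577 and 7813 normalised counts at pH 6.5, against 4384, 12908, 19135, 28707 and 15135 at pH 7.4, and MVD 6418 and 4913 at pH 6.5, against 5111, 11391, 17738, 23100 and 8865 at pH 7.4. Neither was called (limma adjusted p = 0.275 and 0.110). For HMGCS1, replicate 1 at pH 7.4 lay below both libraries at pH 6.5, and for MVD between them. Replicate 1 was the lowest of the 5 at pH 7.4 for 16 of 19 sterol genes, an order seen in 28.5% of all genes, and replicate 6 the highest for 17 of 19, seen in 14.7%. The same orders held for 7 and 8 of 13 fatty acid genes. Replicates 3, 5, 6 and 7 were all above both libraries at pH 6.5 for 13 of 19 sterol genes and 6 of 13 fatty acid genes, against 24.7% of all genes. These orders were chosen for description after the values were seen. Without pH 7.4 replicate 1, 18 members fell and 2 rose, where 14.5% of all genes fell and 12.9% rose. Leaving out pH 6.5 replicate 1 or 3 leaves 1 library at pH 6.5, and fewer members and fewer of all genes were then called lower.

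**Figure D3:**
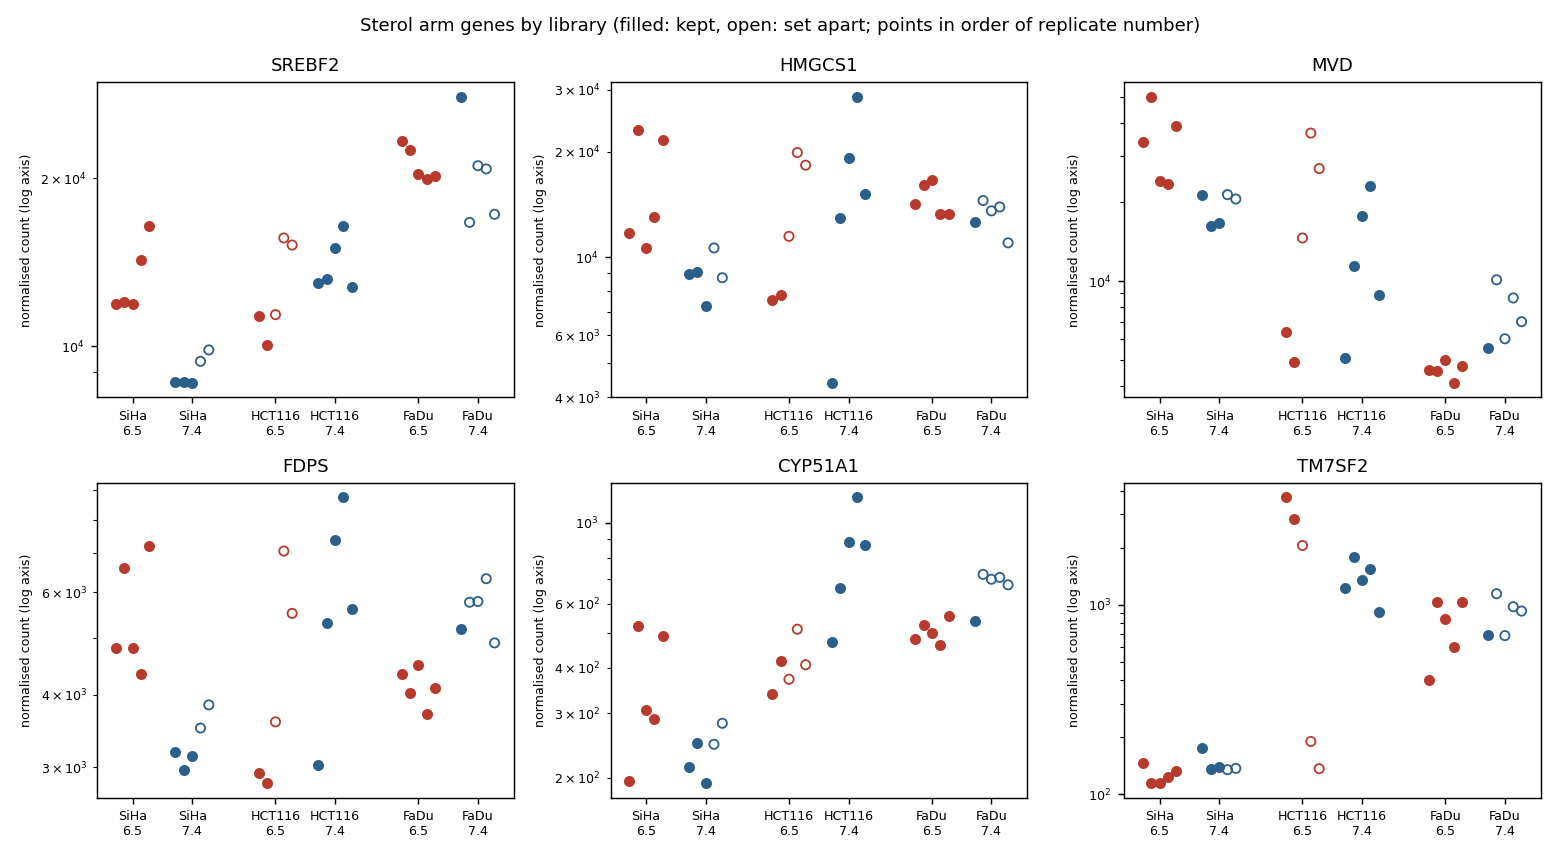
Normalised count (vertical log axis) of SREBF2, HMGCS1, MVD, FDPS, CYP51A1 and TM7SF2 in each library of SiHa, HCT116 and FaDu at pH 6.5 (red) and pH 7.4 (blue), in order of replicate number, with kept libraries filled and libraries set apart open. HMGCS1 in SiHa lies between 10648 and 23065 at pH 6.5, above the kept libraries at pH 7.4, and in HCT116 the pH 7.4 libraries span 4384 to 28707. TM7SF2 in HCT116 pH 6.5 stands at 3705 and 2847 in the kept libraries and at 136 in replicate 7, which held SiHa reads.

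The pH effect differed between HCT116 and SiHa for most sterol genes. In 1 fit over the 21 libraries, the log2 ratio in HCT116 minus that in SiHa was below 0 for 14 called members and above 0 for 1, against 11.9% and 12.6% of 22127 genes. Of these, 12 of the 14 and the 1 above 0, TM7SF2, were sterol genes (12 of 19 sterol genes, and 1 of 13 fatty acid genes, FASN). The difference was -1.004 ± 0.17 for SREBF2 (limma adjusted p = 0.000203), from -0.39 in HCT116 and 0.61 in SiHa. It was -1.79 ± 0.34 for FDPS (limma adjusted p = 0.000715), -1.92 ± 0.50 for MVD (limma adjusted p = 0.00781), -1.68 ± 0.57 for HMGCS1 (limma adjusted p = 0.0362) and -1.44 ± 0.45 for INSIG1 (limma adjusted p = 0.0237). For LSS it was -1.52, for CYP51A1 -1.67, for FDFT1 -1.42 and for MSMO1 -1.38. MVK (-1.25), IDI1 (-1.11), HSD17B7 (-0.96) and SQLE (-0.93) completed the sterol genes below 0. HSD17B7 has a near-identical copy, HSD17B7P2, and reads could be split between them.

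TM7SF2 differed by 1.54 ± 0.38 (limma adjusted p = 0.00537), from 1.29 in HCT116 and -0.25 in SiHa. FASN differed by -1.0003 ± 0.26 (limma adjusted p = 0.00760). SCD and ELOVL6 fell in both lines, and their difference was not called (-0.44 and -0.48). Within the lines, the median log2 ratio of the sterol arm minus that of the fatty acid arm had opposite signs, with medians of -0.65 and -0.23 in HCT116, against 0.62 and -0.13 in SiHa. This contrast of the arms is a description with no test. In HCT116 it rests on 2 libraries at pH 6.5. Relative to the line's mean at pH 7.4, their sterol arm medians were -0.71 and -0.66. Both lay within the spread of the pH 7.4 libraries, -0.71 to 0.54.

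In FaDu cells at pH 6.5, 0 members were called higher and 6 lower, against 4.24% and 3.12% of 19170 genes tested. At an unadjusted limma p under 0.05, 2 were higher and 14 lower. The share of all genes at that threshold was not counted, so these counts are not read as a result about the members. edgeR called 0 higher and DESeq2 called 2. Every value rests on 1 library at pH 7.4, which the fit assumes to vary like those at pH 6.5. The 10 squamous markers summed to 278073 to 435271 normalised counts at pH 6.5, against 486416 at pH 7.4, none of them at the floor in every library. The 6 immune markers summed to 97.1 to 148, against 179, with 2 and 4 of them at the floor, and the 3 endothelial markers to 391 to 2391, against 267, with 1 at the floor in each group. The part of these shifts in the results was not tested. SREBF1 (ENSG00000072310) had 11984, 15116, 12752, 10849 and 12625 normalised counts in pH 6.5 replicates 1 to 5, against 23857 in pH 7.4 replicate 1 (-0.92 ± 0.18, limma adjusted p = 0.0298). FASN had 55082, 44668, 43034, 36653 and 41987 normalised counts at pH 6.5, against 90461 at pH 7.4 (-1.04 ± 0.21, limma adjusted p = 0.0351). ACLY had 16691, 12706, 14860, 13113 and 13694 normalised counts at pH 6.5, against 24117 at pH 7.4 (-0.77 ± 0.17, limma adjusted p = 0.0404). For these 3 genes of the fatty acid arm all 5 libraries at pH 6.5 were below the 1 at pH 7.4. Of the 35 members, 6 lay above it and 21 below it in all 5 libraries, against 27.3% and 29.8% of all genes tested.

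INSIG2 fell by 0.88 on the log2 scale (SE 0.16, limma adjusted p = 0.0247) in FaDu. Of the sterol arm, SC5D fell by 0.71 (SE 0.15, limma adjusted p = 0.0401) and STARD4 by 0.79 (SE 0.16, limma adjusted p = 0.0372). The mevalonate genes held between -0.33 and 0.22, with HMGCS1 at 0.22 ± 0.16 and FDPS at -0.33 ± 0.13, and none was called. The fatty acid genes not yet given held between -0.69 and 0.85, with SCD at -0.57 ± 0.21 (limma adjusted p = 0.127) and ACACB, the highest, at 0.85 ± 0.25 (limma adjusted p = 0.0814). INSIG1 had a log2 ratio of -0.68 ± 0.17 (limma adjusted p = 0.0584) and SCAP of 0.14 ± 0.13. The enzymes from FDFT1 to DHCR7 other than SC5D held between -0.41 and 0.18. SREBF2 had 23350, 22459, 20391, 19954 and 20196 normalised counts at pH 6.5, against 28004 at pH 7.4 (-0.40 ± 0.14, limma adjusted p = 0.116). ELOVL6 had 1383, 1811, 2007, 1720 and 1778 normalised counts at pH 6.5, against 1031 at pH 7.4, above it in every library but not called (0.74 ± 0.19, limma adjusted p = 0.0602). Fewer members fell without FaDu pH 6.5 replicate 2, 3, 4 or 5 and more without replicate 1, and the calls over all genes moved in the same way.

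The pH effect in FaDu minus that in SiHa was called for 3 members: FASN (-0.94 ± 0.31, limma adjusted p = 0.0419), SREBF2 (-1.01 ± 0.20, limma adjusted p = 0.00182) and, above 0, ELOVL6 (1.77 ± 0.34, limma adjusted p = 0.00134). Among all genes, 7.33% were called below and 7.59% above 0. In HCT116 minus FaDu it was called for ELOVL6 (-2.25 ± 0.35, limma adjusted p = 0.000216) and PMVK (0.82 ± 0.26, limma adjusted p = 0.0342), against 8.30% of all genes below and 7.62% above 0. The F-test over the 3 lines called 14 members, against 33.1% of all genes, a share near this background.

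The lines also differed in the level of members, as most genes did: HCT116 over SiHa at pH 7.4 had 14 members higher and 7 lower, against 34.7% and 33.8% of all genes. FADS2, the desaturase that starts polyunsaturated fatty acid synthesis, had 908, 802, 820, 716 and 675 normalised counts in HCT116 pH 7.4, against 10874, 14102 and 10868 in SiHa pH 7.4 (-3.92 ± 0.17, limma adjusted p = 1.89e-14). FADS1, the next desaturase, was lower in HCT116 by a log2 ratio of -1.70 ± 0.17. ELOVL6 averaged 6649 ± 1455 normalised counts in HCT116 and 899 ± 126 in SiHa (SD, n = 5 and 3; log2 ratio 2.87). FASN was higher in HCT116 by 1.71 ± 0.17, CYP51A1 by 1.83 ± 0.27 and TM7SF2 by 3.14 ± 0.25. All 4 desaturases of the list were lower in HCT116, and of the 18 sterol genes other than STARD4, 11 were higher and 1, PMVK, was lower. STARD4 passed the filter through the lines where it was high and had to differ, so it supports no count over SiHa, although it is among the 14 members higher here and the 12 higher in FaDu over SiHa.

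STARD4 (ENSG00000164211), which carries cholesterol between membranes, had 2815, 4449, 5458, 6659 and 4534 normalised counts in HCT116 pH 7.4, against 4.07, 8.53 and 1.13 in SiHa pH 7.4. At pH 6.5 it had 3592, 3168, 3407, 2715 and 2961 in FaDu, against 0 in 4 SiHa libraries and 0.854 in the other. With no read seen, up to 3 may be present, which is 1.90 to 5.01 normalised counts across the 30 libraries. STARD4 was thus at or near the counting floor in SiHa, was not tested there for pH, and is given no fold.

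FaDu over SiHa at pH 6.5 had 12 members higher and 11 lower, against 37.9% and 32.3% of all genes. FADS2 was again far lower, with 958, 886, 897, 768 and 1014 normalised counts in FaDu, against 13283, 14464, 9521, 8640 and 10080 in SiHa (-3.61 ± 0.15, limma adjusted p = 6.00e-15). MVD averaged 4598 ± 336 normalised counts in FaDu and 34105 ± 11200 in SiHa (SD, n = 5 each; log2 ratio -2.83). SQLE averaged 24189 ± 750 normalised counts in FaDu and 9355 ± 2556 in SiHa (log2 ratio 1.41), and DHCR7 averaged 18736 ± 1268 in FaDu and 9426 ± 3037 in SiHa (log2 ratio 1.04). SREBF2 itself was higher in FaDu by 0.69 ± 0.10, and SREBF1 lower (-0.41 ± 0.16).

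**Figure D4:**
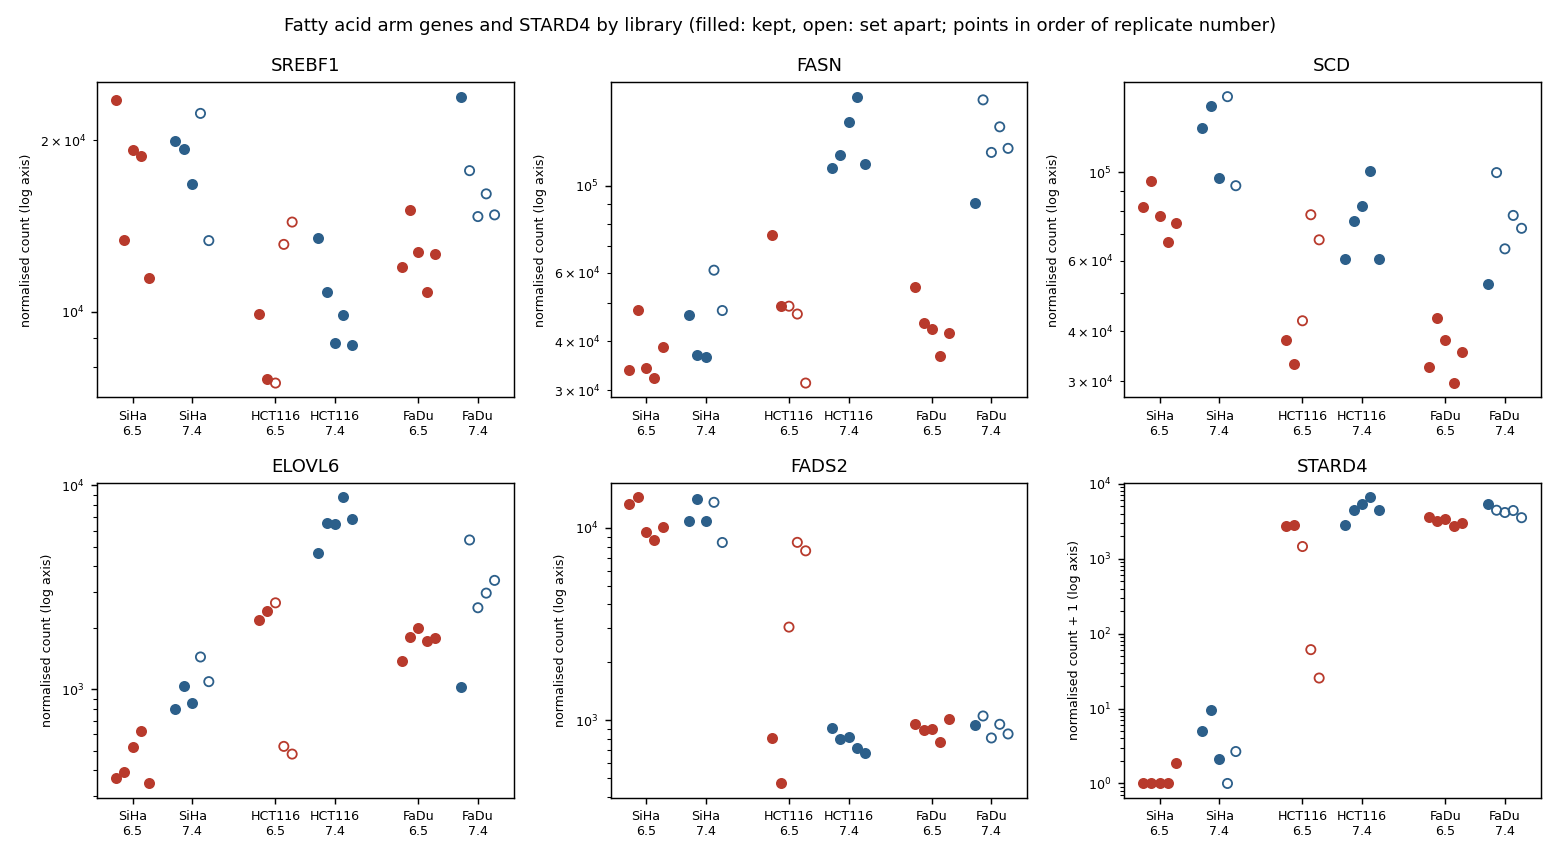
Normalised count (vertical log axis) of SREBF1, FASN, SCD, ELOVL6 and FADS2, and normalised count + 1 of STARD4, in each library of SiHa, HCT116 and FaDu at pH 6.5 (red) and pH 7.4 (blue), in order of replicate number, with kept libraries filled and libraries set apart open. FADS2 lies between 8640 and 14464 in the kept SiHa libraries and between 469 and 1014 in the other kept libraries. STARD4 shows the opposite order in the kept libraries, from 2715 upwards in HCT116 and FaDu and at most 8.53 in SiHa before 1 is added.

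Between genes, levels were compared per kilobase of exon. SCD had the highest median of the 35 in all 6 groups, with medians of 14487 and 23980 normalised counts per kilobase in SiHa at pH 6.5 and pH 7.4, 6642 and 14107 in HCT116, and 6647 and 9821 in FaDu. FASN ranked 2 or 3, with 3644 and 3947 normalised counts per kilobase in SiHa, 6616 and 12840 in HCT116, and 4596 and 9661 in FaDu. The ranges of SCD and FASN overlapped in HCT116 at both pH values and in FaDu at pH 6.5. In HCT116 SCD spanned 6172 to 7113 normalised counts per kilobase and FASN 5257 to 7975 at pH 6.5, and at pH 7.4 SCD spanned 11341 to 18791 and FASN 11879 to 18071. In FaDu at pH 6.5 SCD spanned 5545 to 8048 and FASN 3914 to 5882, and at pH 7.4 their order rests on 1 library. MVD ranked 19 in FaDu at pH 6.5, at 972 normalised counts per kilobase, against 2 in SiHa at that pH, at 7156. ACACB ranked last in HCT116 and FaDu, at 22.1 to 53.2 per kilobase over their 4 groups, and STARD4 last in SiHa.

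Other genes of both pathways, taken as a list of 31, were counted in the same way. In SiHa 9 rose and 1 fell of 25 tested, against 15.0% and 16.2% of all genes. In HCT116 1 rose and 5 fell of 24, against 9.11% and 11.1%, and in FaDu 1 rose and 2 fell of 26, against 4.24% and 3.12%. The FaDu count that rose was near its background. In SiHa the largest changes were in ELOVL3, an elongase (-1.37 ± 0.16, limma adjusted p = 0.000219), in HSD17B8, a subunit of a reductase of mitochondrial fatty acid synthesis (0.79 ± 0.20), in ACAT2, which makes acetoacetyl-CoA (0.50 ± 0.17), and in MID1IP1, an activator of acetyl-CoA carboxylase (0.49 ± 0.13). In HCT116 HSD17B8 rose (1.15 ± 0.24), and the dehydratase HACD1 (-1.02 ± 0.18) and the malic enzyme ME1 (-0.81 ± 0.17) fell. In FaDu the 3 called were HSD17B12, a reductase of chain elongation (-0.74 ± 0.16), HSD17B8 (0.71 ± 0.15) and MID1IP1 (-0.58 ± 0.12). HSD17B8 was thus called higher at pH 6.5 in every line, with 1 library at pH 7.4 in FaDu.

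Partners of the SREBP axis, 26 genes for sterol sensing, uptake, export and storage, had 5 higher and 4 lower of 24 tested in SiHa (15.0% and 16.2% of all genes), 1 and 4 in HCT116 (9.11% and 11.1%) and 1 and 4 in FaDu (4.24% and 3.12%). The SiHa counts in both directions and the HCT116 and FaDu counts of higher genes lay near or below these shares. The sterol exporters ABCA1 and ABCG1 had the largest changes among those named. ABCA1 averaged 550 ± 417 normalised counts at pH 6.5 and 3036 ± 588 at pH 7.4 in SiHa (SD, n = 5 and 3; log2 ratio -3.03 ± 0.77), and 86.8 ± 12.01 at pH 6.5 against 512 in the 1 library at pH 7.4 in FaDu (log2 ratio -2.56 ± 0.25). ABCG1 fell in every line, with log2 ratios of -1.77 ± 0.36 in SiHa, -2.77 ± 0.69 in HCT116 and -2.05 ± 0.43 in FaDu. Its values in HCT116 were low, 5.70 and 32.05 normalised counts at pH 6.5 against 36.85 to 277.5 at pH 7.4. The FaDu ratio rests on 1 library at pH 7.4. ABCA1 in HCT116 was not called (0.92 ± 0.56). In SiHa NR1H3, the gene of the oxysterol receptor LXR-alpha, fell by 0.85 (SE 0.09, limma adjusted p = 0.000161). In HCT116 RNF145, a ubiquitin ligase for SCAP, fell by 1.33 (SE 0.17), NPC2, which moves cholesterol out of lysosomes, fell by 0.52 (SE 0.17), and UBXN8, a protein of the endoplasmic reticulum, rose by 0.62 ± 0.16. In FaDu ERLIN2, a membrane protein of the endoplasmic reticulum, rose by 1.13 ± 0.25, and MYLIP, a ligase for the LDL receptor, fell by 0.71 (SE 0.14).

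With all 30 libraries taken as labelled, 12 members rose and 4 fell in SiHa (19.7% and 21.1% of all genes), 0 and 5 in HCT116 (8.56% and 9.62%) and 4 and 16 in FaDu (24.0% and 22.3%). For TM7SF2 in HCT116 pH 6.5, the set-apart replicates 5, 6 and 7 had 2056, 190 and 136 normalised counts, against 3705 and 2847 in replicates 1 and 3, while SiHa pH 6.5 libraries had 114 to 146. FADS2 in the same 3 libraries had 3049, 8408 and 7597 normalised counts, against 813 and 469 in replicates 1 and 3. STARD4 had 1455, 60.2 and 24.6, against 2775 and 2782. For each of these genes replicates 6 and 7 were nearer to the SiHa pH 6.5 libraries than to HCT116 replicates 1 and 3, and replicate 5 lay between.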

How the data were processed

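Reads per gene were measured in 30 libraries. Per the submitters' processing notes, the authors used the build GRCh37 with DESeq2 1.22.2, STAR 2.6.1d, Trimmomatic 0.38, bcl2fastq 2.20 and FastQC. How reads were counted, with which strand setting and annotation, is not given in the sources used here, so reads of SREBF2 and its antisense partner cannot be told apart. The deposited values are a signal, normalised counts, each a whole multiple (within 0.01 of a step, for 100% of values) of the value of 1 read in its library. Whole reads were recovered from that step, which matched DESeq2 size factors over all 30 libraries. Symbols for 35466 identifiers and exon lengths came from GENCODE on GRCh38, so no coordinates of the files are given. The floor of 3 reads covers counting error only, as the sources used here name no molecular identifiers for reads.

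The 35 members, the other lists, the libraries set apart and the tests were chosen with earlier results of these data known. limma 3.58.1 (R 4.3.3) with a mean-variance trend was fitted to log2(normalised count + 1), 2-sided, on genes whose higher group averaged 10 or more, with Benjamini-Hochberg adjustment over all genes tested and calls under 0.05. Log2 ratios on this scale understate changes of low genes. Each line was fitted alone, and 1 fit over 21 libraries gave the differences between lines. All members are named, and of each other list the up to 4 called genes with the largest change per line, of which some are not reported here. Alternatives were all libraries as labelled, a replicate block, each library left out, 1 fit, TMM and total-read scaling, pseudocounts of 0.5 and 5, filters of 0 and 50, and edgeR 4.0.16 and DESeq2 1.42.0 on whole reads. ACACA, on the list of other pathway genes, was matched by no symbol and is not analysed here. Python 3.11.15, numpy 2.4.6, pandas 2.3.3 and matplotlib 3.10.9 made tables and figures. The limma fit was tested on simulated data.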

Additional observations from a re-analysis of the deposited data

Results flagged for a closer look

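In 8 of 104 groups of 5 libraries, 1 library of a member stood far from the other 4, where chance gives about 1 in 20. In FaDu pH 6.5 it was replicate 1 each time, the highest for ELOVL1 (5286 normalised counts), ELOVL7 (962), MSMO1 (5719) and EBP (8786). In HCT116 pH 7.4 it was also replicate 1, the highest for FADS3 (3036), SCAP (4079) and PMVK (860). In SiHa pH 6.5 it was replicate 7, the highest for INSIG2 (640).

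The pH effect differed between lines by the limma contrasts described above. The log2 effect in HCT116 minus that in SiHa was -1.0003 for FASN, -1.004 for SREBF2, -1.44 for INSIG1, -1.68 for HMGCS1, -1.25 for MVK, -1.92 for MVD, -1.11 for IDI1, -1.79 for FDPS, -1.42 for FDFT1, -0.93 for SQLE, -1.52 for LSS, -1.67 for CYP51A1, -1.38 for MSMO1 and -0.96 for HSD17B7, and 1.54 for TM7SF2. The effect in FaDu minus that in SiHa was -0.94 for FASN, -1.01 for SREBF2 and 1.77 for ELOVL6. The effect in HCT116 minus that in FaDu was -2.25 for ELOVL6 and 0.82 for PMVK. The FaDu effects rest on 1 library at pH 7.4.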

How the results depend on the processing

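Counts of members called are given as higher and lower. With all libraries as labelled, HCT116 had 0 higher, FaDu 4 and 16, and HCT116 minus SiHa 0 and 8, and TM7SF2 turned to -0.57 in HCT116 and -0.38 in HCT116 minus SiHa, where 3 pH 6.5 libraries with SiHa reads enter. The replicate block on all libraries gave 17 higher in SiHa, 0 and 2 in HCT116 (TM7SF2 -0.57) and 3 and 16 in FaDu. Among kept libraries, deviations from the group mean correlated between same-numbered libraries at 0.33, 0.04 and 0.08 in SiHa replicates 1, 4 and 5. In HCT116 replicates 1 and 3 they correlated at 0.18 and 0.06. The same number gave the highest correlation for SiHa replicates 1 and 4 and HCT116 replicate 1, and not for the others. Whether the numbers mark pairs is thus not settled. The block on the kept libraries gave 1 and 4 in HCT116, and could not be fitted in FaDu. Other counts that moved by over 1.5 times were 6 higher in SiHa and 1 higher in FaDu with 1 fit over 21 libraries, 2 higher in FaDu with DESeq2, 1 lower in FaDu with no filter, 5 lower in SiHa without pH 6.5 replicates 4 and 7 (an alternative added after seeing the data), 3 higher with total-read scaling and 2 higher with a pseudocount of 0.5 in HCT116 minus SiHa, and 12 lower in HCT116 over SiHa with total-read scaling, which shifted the median of all genes by -0.17. The cause was not tested. Over all genes, FaDu had 812 higher and 599 lower with limma, 599 and 769 with edgeR, 1363 and 1296 with DESeq2, and, with 1 pH 6.5 library left out, 38 to 3430 and 28 to 3609.

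Leaving out 1 library at a time gave 4 to 13 higher and 2 to 4 lower in SiHa, 1 to 2 and 3 to 18 in HCT116, 0 to 2 and 0 to 16 in FaDu, 8 to 22 called in the F-test, 1 to 3 and 8 to 19 in HCT116 minus SiHa, 12 to 19 and 6 to 9 in HCT116 over SiHa, and 11 to 13 and 10 to 15 in FaDu over SiHa. The 1 FaDu library at pH 7.4 could not be left out. Whether depth or the number of libraries limits these calls was not tested. Of the members, STARD4 in SiHa was at or near the counting floor.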

Other observations

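Copies of members outside the list were read too. SCDP1, a pseudogene of SCD, fell with SCD in SiHa (32.6 ± 11.6 normalised counts at pH 6.5 and 61.0 ± 13.8 at pH 7.4, SD, n = 5 and 3; limma adjusted p = 0.0429) and in HCT116 (16.6 ± 2.38 at pH 6.5 and 36.9 ± 5.93 at pH 7.4, SD, n = 2 and 5; limma adjusted p = 0.0239). Reads of near-identical copies can be assigned to either gene. HSD17B7P2 averaged 247 ± 13.1 normalised counts at pH 6.5 and 452 ± 161 at pH 7.4 in HCT116 (log2 ratio -0.79, limma adjusted p = 0.0823), and 50.5 ± 10.98 at pH 6.5 and 41.0 ± 5.13 at pH 7.4 in SiHa. SREBF2-AS1, the antisense partner of SREBF2, averaged 350.7 ± 65.8 normalised counts at pH 6.5 and 195.8 ± 11.3 at pH 7.4 in SiHa (log2 ratio 0.82 ± 0.16), and its effect in HCT116 minus that in SiHa was -0.91 ± 0.24 (limma adjusted p = 0.00882).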
